A study of Rattus norvegicus with 20 samples.

Results

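The mRNA of the left dentate gyrus was compared between rats in the chronic phase after amygdala stimulation and their time-matched controls, 30 d after the procedure. The comparison used 10 of the 20 arrays of the study, chosen by their labels alone: 5 sham-operated rats at 30 d and 5 stimulated rats at 30 d. The 10 arrays at 7 d, from both treatments, shared the estimate of the variance and served to compare the change at 30 d with the change at 7 d. All animals were adult male Sprague-Dawley rats with an electrode implanted in the left lateral amygdala. In stimulated rats a train of electrical pulses evoked status epilepticus (SE), which was later stopped with diazepam. Sham-operated rats carried the electrode but received no pulses, and the labels and methods do not give them diazepam. The stimulated rats had all developed spontaneous seizures, so the effects of SE, of diazepam and of later seizures cannot be told apart in this comparison. Each array was hybridised with the RNA of 1 dissected left dentate gyrus.

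The dentate gyrus is the entrance of the hippocampal circuit. Its granule cells receive the perforant path from the entorhinal cortex and send mossy fibres to the hilus and to CA3, and new granule cells are added throughout life. After SE this region is known for loss of hilar neurons, sprouting of mossy fibres, and lasting activation of microglia (the resident immune cells of the brain) and of astrocytes (glia that buffer ions and transmitters).

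Values are log2 intensities after RMA, the normalization used by the authors, so a difference of 1 is a doubling of the probe signal. Array medians ranged from 5.22 to 5.31, and each array had 79.0% to 80.9% of its probe sets above background. Granule cell markers were well measured, with Prox1, the transcription factor that defines granule cells, at 9.51 to 9.82 in sham-operated and 9.35 to 9.61 in stimulated rats. C1ql2, a secreted mossy fibre protein, lay at 9.49 to 9.78 and 8.74 to 9.82, while Tdo2, another granule cell marker, did not pass the filter on low values. Wfs1, a marker of the neighbouring CA1 field, ranged from 7.27 to 8.81 in sham-operated and from 7.17 to 9.25 in stimulated rats. At 30 d 2 arrays stood apart: sham-operated replicate 3 had a mean correlation with its group of 0.9933, and stimulated replicate 5 had high CA1 and CA3 and choroid plexus markers. In these bulk samples, fewer cells of a type and less RNA per cell cannot be told apart.

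Of 15800 probe sets tested, 132 (0.835%) were higher and 142 (0.899%) were lower in stimulated rats at 30 d (limma, Benjamini-Hochberg adjusted p under 0.05), which made 274 (1.73%) in either direction. They belonged to 127 and 135 genes. At an unadjusted p under 0.05, 856 (5.42%) were higher and 941 (5.96%) were lower. The median change of all probe sets was -0.00641. The rises were larger than the falls in size: 6 rises and 3 falls exceeded 1 on the log2 scale, 50 and 28 lay between 0.5 and 1, and 76 and 111 were smaller. In 291 probe sets (1.84% of those tested) all 5 stimulated rats were above all 5 sham-operated rats, and in 383 (2.42%) all were below, 674 (4.27%) in all. Among the called probe sets, 105 of the 132 rises and 110 of the 142 falls had groups that did not overlap. The number of calls depended on single rats. Without stimulated replicate 4 there were 219 rises and 164 falls. Without stimulated replicate 2 there were 63 and 69, without stimulated replicate 1 there were 68 and 83, and without stimulated replicate 5 there were 88 and 90. Among the sham-operated rats at 30 d, leaving out replicate 1 gave 85 rises and 96 falls, replicate 2 gave 78 and 69, replicate 4 gave 74 and 69, and replicate 5 gave 95 and 85. Without stimulated replicate 5 at 7 d there were 207 and 186. With both arrays that stood apart left out, 60 rises and 76 falls were called, and 119 of the 274 calls were kept. Genes are described below with the values of the rats in the order of replicates 1 to 5, and a call that was lost without 1 rat is given as such. This is not given for called genes named only as outside a list or as holding a motif.

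The largest fall was that of Nhlh1, a helix-loop-helix transcription factor of young neurons (probe set 10769929). Its log2 intensity was 7.00, 7.21, 6.92, 6.95 and 7.34 in sham-operated rats and 6.09, 6.14, 5.91, 6.56 and 5.19 in stimulated rats. All stimulated rats were below all sham-operated rats, and replicate 5 was the lowest. The change was -1.11 (standard error 0.169, n = 5 per group, limma adjusted p = 0.00129), or 0.464 times the sham level. At 7 d the change was -0.78. Some other transcription factors, picked with their values in view, also fell, while others such as Sox11 and Smad3 rose. Nr2f2, the nuclear receptor COUP-TFII, had values of 7.02, 7.00, 7.03, 7.04 and 7.02 in sham-operated rats, which hardly differed, and 6.47, 6.60, 6.48, 6.72 and 6.66 in stimulated rats. Its change was -0.44 (limma adjusted p = 0.00695). The ETS factor Etv5 fell by 0.51 (limma adjusted p = 0.00194) and Ets2 fell by 0.27 (limma adjusted p = 0.00789). Nr4a3, an activity-induced nuclear receptor, had values of 7.97 to 8.07 in sham-operated and 7.30 to 7.88 in stimulated rats, and fell by 0.47 (limma adjusted p = 0.00675).

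**Figure D1:**
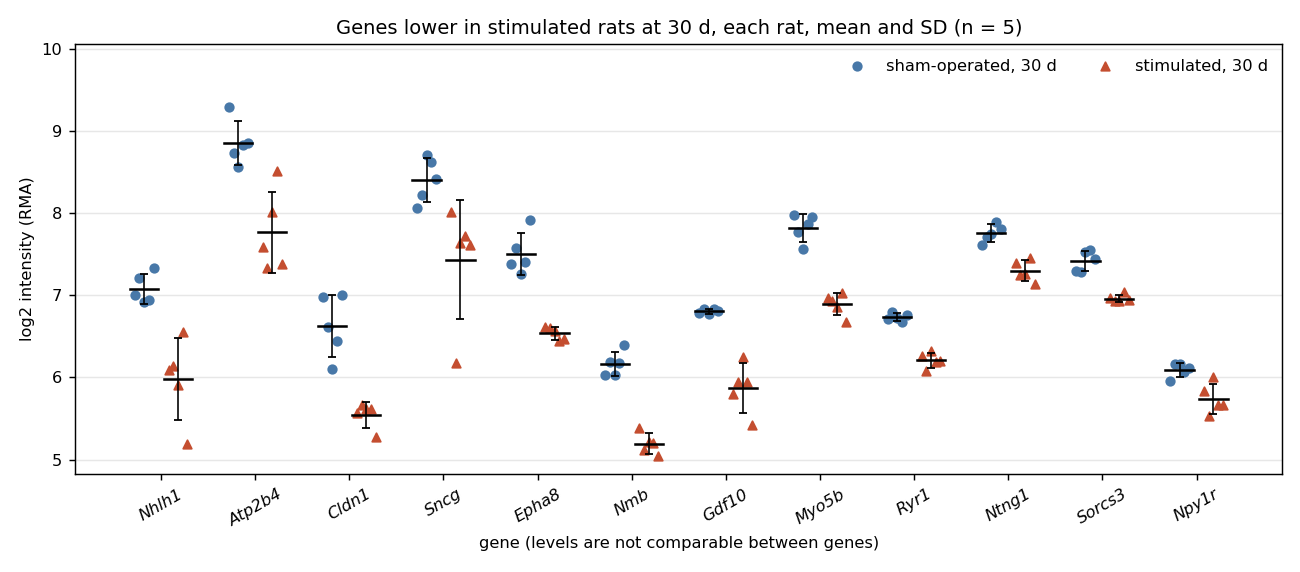
Log2 intensity (RMA) of genes that fell in stimulated rats at 30 d, with 1 point per rat, a bar for the mean and a whisker for the SD of the 5 rats of a group. Epha8 and Myo5b show tight groups that lie far apart, while Sncg is spread by stimulated replicate 2 at 6.18 and the groups of Npy1r overlap.

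Genes of calcium handling fell in part. Atp2b4, a calcium pump of the plasma membrane (probe set 10767723), had values of 9.29, 8.73, 8.57, 8.83 and 8.86 in sham-operated rats and 7.59, 7.34, 8.02, 8.51 and 7.38 in stimulated rats. Stimulated replicate 4 lay just below the lowest sham-operated rat, and the other stimulated rats were lower by a wide margin. The change was -1.09 (standard error 0.175, limma adjusted p = 0.00194). Ryr1, a calcium release channel of internal stores, had values of 6.71, 6.80, 6.72, 6.68 and 6.76 in sham-operated and 6.26, 6.08, 6.32, 6.19 and 6.20 in stimulated rats. The groups were narrow and well apart, and the change was -0.52 (standard error 0.0691, limma adjusted p = 0.000339). Camk4, a kinase activated by calcium and calmodulin, fell by 0.33 (limma adjusted p = 0.0357) and the calcium sensor Ncald fell by 0.30 (limma adjusted p = 0.0461). The call of Camk4 was lost in 7 of the 20 fits that left out 1 rat (adjusted p up to 0.124) and that of Ncald in 16 (up to 0.124). Of the 34 measured genes of calcium handling and calcium binding, 4 fell and 3 were called higher (Necab3, S100a4 and Slc24a4), and the median change was -0.05, beside -0.00641 for all probe sets. The calls of S100a4 (change 0.54) and Slc24a4 (change 0.22) were lost in 6 and 12 fits without 1 rat (adjusted p up to 0.09 and 0.157).

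Of the receptors and ligands that guide axons, Epha8, Ntng1, Plxnc1 and Efnb2 fell. Epha8, an ephrin receptor tyrosine kinase (probe set 10880738), had values of 7.38, 7.58, 7.26, 7.41 and 7.92 in sham-operated rats and 6.61, 6.60, 6.57, 6.44 and 6.47 in stimulated rats. The stimulated rats lay close together and all were below the controls. The change was -0.97 (standard error 0.106, limma adjusted p = 6.71e-05), or 0.51 times the sham level. Ntng1, the membrane-anchored netrin-G1 of axons, had values of 7.61 to 7.90 in sham-operated rats and 7.14 to 7.46 in stimulated rats, and fell by 0.46 (limma adjusted p = 0.00194). Plxnc1, a semaphorin receptor, fell by 0.34 (limma adjusted p = 0.00673). Efnb2, an ephrin ligand, fell by 0.54 (limma adjusted p = 0.0189) with groups that overlapped through sham-operated replicate 3 at 4.93 and stimulated replicate 4 at 5.22. The call of Efnb2 was lost in 6 fits without 1 rat (adjusted p up to 0.0679). Of the 54 measured genes of axon guidance, 4 fell and 1, the secreted semaphorin Sema3d, was called higher (change 0.70, limma adjusted p = 0.0432), a call lost in 13 fits without 1 rat (adjusted p up to 0.136). At an unadjusted p under 0.05, 16 were lower and 6 were higher, and the median change of the list was -0.02.

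The following falls were named from their values, and, other than the cadherins, from no list of adhesion genes. Cldn1, a tight junction protein (probe set 10751896), had values of 6.98, 6.62, 6.10, 6.45 and 7.00 in sham-operated rats and 5.57, 5.67, 5.61, 5.62 and 5.27 in stimulated rats. The controls spread more than the stimulated rats, and the groups did not overlap. The change was -1.08 (standard error 0.217, limma adjusted p = 0.0105). The integrin subunit Itga4 had values of 5.19 to 5.61 in sham-operated and 4.78 to 4.86 in stimulated rats, a fall by 0.55 (limma adjusted p = 0.00158), and Itgb4 fell by 0.47 (limma adjusted p = 0.00676). Svep1, a large secreted adhesion protein, fell by 0.63 (limma adjusted p = 0.0081). Ndst3, which modifies heparan sulfate chains, fell by 0.59 (limma adjusted p = 0.00344), and so did Fmn1, a formin that elongates actin filaments (limma adjusted p = 0.00507). Of the 29 measured cadherins, 1 fell: Cdh8 changed by -0.31 (limma adjusted p = 0.031), and this call was lost in 8 fits without 1 rat.

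Among secreted factors, Nmb, the neuropeptide neuromedin B (probe set 10723220), had values of 6.03, 6.19, 6.03, 6.18 and 6.39 in sham-operated rats and 5.39, 5.12, 5.22, 5.20 and 5.04 in stimulated rats. The groups lay well apart with little spread in either. The change was -0.97 (standard error 0.126, limma adjusted p = 0.000298) at 30 d and -0.72 at 7 d. Gdf10, a growth factor of the TGF-beta family, had values of 6.78, 6.84, 6.77, 6.83 and 6.81 in sham-operated rats and 5.80, 5.94, 6.25, 5.95 and 5.42 in stimulated rats. The controls were nearly equal, and the change was -0.93 (standard error 0.114, limma adjusted p = 0.000164). Its relative Bmp3 changed by -0.58 (limma adjusted p = 0.0347), a call lost in 8 fits without 1 rat (adjusted p up to 0.101). Other members of this pathway were higher. Acvr1c, the receptor ALK7 of this family, had values of 6.59, 6.40, 6.46, 6.67 and 6.76 in sham-operated rats and 7.56, 7.14, 7.41, 6.91 and 8.10 in stimulated rats. It rose by 0.85 (standard error 0.156, limma adjusted p = 0.00621). Smad3, which carries TGF-beta signals to the nucleus, had values of 7.66 to 7.79 and 7.97 to 8.24 and rose by 0.41 (limma adjusted p = 0.00541). Over the 37 measured genes of the TGF-beta and BMP list, which does not hold Acvr1c, 2 fell, 1 rose and the median change was 0.01. Igfbp5, a binding protein of insulin-like growth factors, had values of 8.08 to 8.36 in sham-operated and 7.17 to 7.92 in stimulated rats and fell by 0.66 (limma adjusted p = 0.00684). It was the only 1 of 32 measured genes in the list of growth factors and receptors that passed the test. That list does not hold Gdf10 and Bmp3, or the receptors Erbb4 and Csf1r given below, which also passed.

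Of the glutamate receptors, subunits of the kainate and delta families fell. Grik3, a kainate receptor subunit, had values of 7.25, 7.36, 6.97, 7.13 and 7.12 in sham-operated rats and 6.37, 6.35, 6.62, 7.05 and 6.05 in stimulated rats. Stimulated replicate 4 lay within the range of the controls and the others were below it. The change was -0.68 (standard error 0.126, limma adjusted p = 0.00632). Grid1, a delta receptor subunit, had values of 8.64 to 8.90 and 8.24 to 8.49 and fell by 0.33 (limma adjusted p = 0.00548). Its other probe set changed by -0.22 (limma adjusted p = 0.194). The kainate subunit Grik1 changed by -0.30 (limma adjusted p = 0.041), a call lost in 12 fits without 1 rat (adjusted p up to 0.137). Of the 26 measured genes of ionotropic glutamate receptors and their partners, these 3 fell and 1 rose: Nptx2, a pentraxin that clusters AMPA receptors, by 0.49 (limma adjusted p = 0.0081). Their median change was -0.05. The rise of Nptx2 had an adjusted p of 0.0523 (limma) when both arrays that stood apart were left out. In the lists of metabotropic glutamate receptors (0 of 8) and of GABA receptors (0 of 14), no gene passed the test in limma. The GABA receptor subunit Gabrq, outside these lists, was called lower. Its values were 3.97 to 4.25 in sham-operated and 3.69 to 3.86 in stimulated rats, near the background of 3.69. At an unadjusted p under 0.05, 2 genes of the metabotropic list were lower, and in the GABA list 3 were lower and 1 was higher. The GABA list also holds Gphn, which is a scaffold protein and not a receptor. No gene of the sodium, calcium and HCN channels (0 of 26) passed either, with 5 lower and 0 higher at an unadjusted p under 0.05. Of 52 potassium channel genes, 2 fell (Kcnc2 and Kcnh5), with 11 lower and 1 higher at an unadjusted p under 0.05. The change of Kcnh5 was -0.33 (limma adjusted p = 0.0489), a call lost in 16 fits without 1 rat.

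Of 26 measured genes of inhibitory interneurons, 2 fell, 0 rose, 11 were lower and 0 were higher at an unadjusted p under 0.05, and the median change was -0.14. Erbb4, the neuregulin receptor of interneurons, had values of 7.47, 7.59, 7.56, 7.53 and 7.43 in sham-operated rats and 6.86, 6.83, 7.20, 7.41 and 7.19 in stimulated rats. Replicates 1 and 2 were lowest and replicate 4 came close to the controls. The change was -0.42 (standard error 0.0868, limma adjusted p = 0.0135). Kcnc2, a fast potassium channel of interneurons, had values of 7.50 to 7.72 and 7.19 to 7.39, and changed by -0.32 (limma adjusted p = 0.0215), a call lost without sham-operated replicate 2 or 4 and without stimulated replicate 1 or 2 (adjusted p up to 0.0769). Gad1, which makes GABA, lay at 8.68 to 8.86 in sham-operated and 8.44 to 8.64 in stimulated rats, without overlap, but its change of -0.24 missed the threshold (limma adjusted p = 0.0598). Gad2 changed by -0.14 (limma adjusted p = 0.807). The mean level of the list was below the sham mean by 0.20, 0.24, 0.11 and 0.10 in stimulated replicates 1 to 4 and above it by 0.01 in replicate 5, while single controls lay between -0.07 and 0.06.

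Of 16 measured genes of mature granule cells, 2 fell, 0 rose, and 5 were lower and 0 higher at an unadjusted p under 0.05, with a median change of -0.13. C1ql3, a secreted synaptic protein, had values of 9.57, 9.56, 9.83, 9.58 and 9.69 in sham-operated rats and 9.36, 9.16, 9.29, 9.37 and 9.34 in stimulated rats. All stimulated rats were below the controls, and the change was -0.35 (standard error 0.0568, limma adjusted p = 0.00237). Calb1, the calcium buffer calbindin, lay at 8.32 to 8.54 and 7.70 to 8.35, and its change of -0.35 was not called (limma adjusted p = 0.0741). Plk5 lay at 7.27 to 7.48 and 5.43 to 7.24 (change -0.68, limma adjusted p = 0.228), with the lowest value in stimulated replicate 5. The mean level of the list was 0.40 below the sham mean in stimulated replicate 5, in which the CA1 and CA3 list was 0.42 and the choroid plexus list 0.41 above it. In the other stimulated rats it was below by 0.07, 0.16, 0.07 and 0.07. No gene of the CA1 and CA3 list passed the test or an unadjusted p under 0.05 (0 of 11, limma). The part of dissection in these values was not tested.

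The receptors of neuropeptide Y moved in opposite directions. Npy2r, the receptor found at mossy fibre terminals, had 2 probe sets with the same values. They were 7.20, 6.97, 6.90, 6.94 and 7.38 in sham-operated rats and 7.83, 8.06, 7.94, 7.81 and 7.93 in stimulated rats. The groups did not overlap, and the rise was 0.84 (standard error 0.122, limma adjusted p = 0.000796), or 1.79 times the sham level. At 7 d the change was also 0.84. Npy1r, the receptor of granule cell bodies and dendrites, had values of 5.96, 6.17, 6.16, 6.07 and 6.12 in sham-operated rats and 5.83, 5.53, 6.0, 5.67 and 5.66 in stimulated rats. Stimulated replicate 3 lay among the controls. The change was -0.36 (standard error 0.0876, limma adjusted p = 0.0362) at 30 d and 0.06 at 7 d. The call of Npy1r was lost in 8 fits without 1 rat (adjusted p up to 0.128) and with array medians centred. Other receptors were lower. Trhr, the receptor of thyrotropin-releasing hormone, had values of 5.76, 5.35, 5.17, 5.46 and 5.35 in sham-operated rats and 4.50, 4.53, 4.32, 4.65 and 5.12 in stimulated rats. Replicate 5 lay just below the controls. Its change of -0.79 (limma adjusted p = 0.0152) was at the threshold without sham-operated replicate 1 (adjusted p = 0.0501). The serotonin receptor Htr5b fell by 0.54 (limma adjusted p = 0.0105), the only 1 of 28 measured receptors of monoamines, acetylcholine, opioids and cannabinoids that passed. Cckbr, a cholecystokinin receptor, changed by -0.46 (limma adjusted p = 0.0458), and Hcrtr2, an orexin receptor, by -0.28 (limma adjusted p = 0.0362). Their calls were lost in 14 and 7 fits without 1 rat.

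Further falls touched membrane traffic and signalling. Myo5b, a myosin motor of recycling endosomes, had values of 7.98, 7.77, 7.56, 7.87 and 7.95 in sham-operated rats and 6.97, 6.93, 6.86, 7.03 and 6.68 in stimulated rats. The groups lay more than 0.5 apart, and the change was -0.93 (standard error 0.106, limma adjusted p = 9.15e-05). Ddit4l, an inhibitor of the growth kinase mTOR, had values of 6.17 to 6.95 and 5.29 to 6.01 and fell by 0.86 (limma adjusted p = 0.00205). In its list of stress and mTOR restraint, 1 of 21 fell and 1 was called higher, Sesn3, a sestrin (change 0.22, limma adjusted p = 0.04), a call lost in 10 fits without 1 rat. Pkib, an inhibitor of protein kinase A, fell by 0.68 in 1 of its 2 probe sets (limma adjusted p = 0.00544). The other probe set of Pkib changed by -0.06 (limma adjusted p = 0.792). The synaptotagmin Syt10, a calcium sensor of vesicle release, fell by 0.54 (limma adjusted p = 0.00789). The cation channels Trpc4 and Trpc5 changed by -0.53 (limma adjusted p = 0.0233) and -0.37 (limma adjusted p = 0.016). The call of Trpc4 was lost in 5 fits without 1 rat and that of Trpc5 in 1. Ralgapa2, a subunit of the complex that switches off Ral GTPases, was called lower in 7 of its 10 probe sets. In the one that fell most its values were 5.45 to 6.07 in sham-operated and 4.77 to 5.20 in stimulated rats, a fall by 0.60 (limma adjusted p = 0.00387). Of its 7 calls, 4 were lost in 4 to 8 fits without 1 rat. Sncg, gamma-synuclein, had values of 8.07, 8.22, 8.71, 8.63 and 8.42 in sham-operated rats and 8.02, 6.18, 7.64, 7.73 and 7.61 in stimulated rats. Stimulated replicate 2 was the lowest by far, and replicate 1 lay just below the controls. The change of -0.98 (limma adjusted p = 0.0348) lost its call without any of sham-operated replicates 2 to 5 or stimulated replicate 5 (adjusted p up to 0.101). Gpc3, a glypican of the cell surface, changed by -0.85 (limma adjusted p = 0.038) with the lowest value, 5.37, in stimulated replicate 5. Its call was lost in 8 fits without 1 rat (adjusted p up to 0.101).

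Genes still raised at 30 d were led by the immune proteins Cd74 and C3. Cd74, the invariant chain that loads MHC class II (probe set 10802013), had values of 6.29, 6.42, 6.81, 6.41 and 6.12 in sham-operated rats and 10.13, 10.57, 8.17, 7.04 and 8.58 in stimulated rats. Every stimulated rat was above every control, but the stimulated rats spread widely, from replicate 4 to replicate 2. The rise was 2.49 (standard error 0.496, limma adjusted p = 0.0103), or 5.62 times the sham level. C3, the central complement protein, had values of 6.10, 5.91, 6.58, 5.77 and 5.90 in sham-operated rats and 8.60, 8.89, 7.97, 7.09 and 8.16 in stimulated rats. Its rise was 2.09 (standard error 0.291, limma adjusted p = 0.000531), or 4.25 times. Serping1, the inhibitor of complement C1, had values of 4.91, 4.95, 5.05, 4.93 and 4.91 in sham-operated rats and 6.86, 7.47, 5.81, 5.26 and 6.87 in stimulated rats. The controls hardly differed, and the rise was 1.5 (standard error 0.284, limma adjusted p = 0.00676). Of 12 measured complement genes, 4 rose, with a median change of 0.51. The other 2 of these were the protease C1r (change 0.45, limma adjusted p = 0.0432) and the receptor C3ar1 (change 0.57, limma adjusted p = 0.0432), whose calls were lost in 14 and 13 fits without 1 rat. Of 11 measured MHC class II genes, Cd74 alone passed the test, 7 were higher at an unadjusted p under 0.05, and the median change was 0.27. Glipr2, a membrane-associated protein, lay at 5.39, 5.37, 5.36, 5.41 and 5.44 in sham-operated rats and 7.03, 7.56, 6.11, 5.86 and 6.47 in stimulated rats. The controls were nearly equal, all stimulated rats were higher, and the change was 1.21 (standard error 0.254, limma adjusted p = 0.0138), with an adjusted p of 0.0508 without stimulated replicate 1. S100a3, a calcium-binding protein, had values of 4.24 to 4.57 and 4.81 to 5.60 and rose by 0.89 (limma adjusted p = 0.0105), with an adjusted p of 0.0699 when both arrays that stood apart were left out. Rnaset2, a ribonuclease, changed by 0.79 (limma adjusted p = 0.0455), a call lost in 13 fits without 1 rat. Its other probe set changed by 0.58 (limma adjusted p = 0.228).

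**Figure D2:**
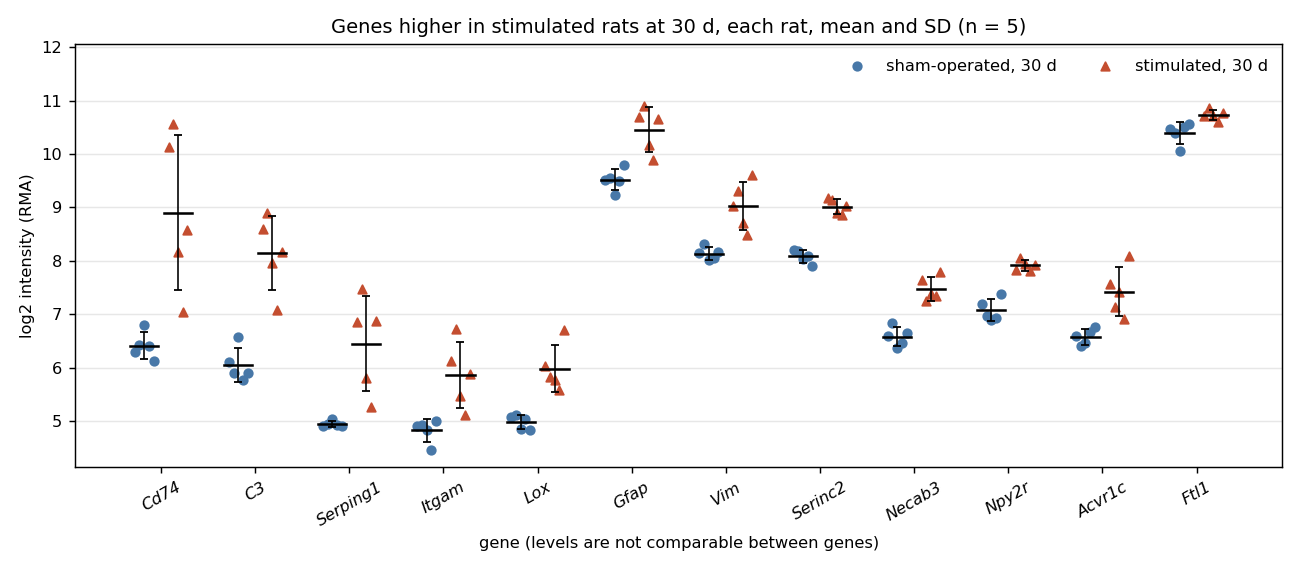
Log2 intensity (RMA) of genes that were higher in stimulated rats at 30 d, with 1 point per rat, a bar for the mean and a whisker for the SD of the 5 rats of a group. Cd74, C3 and Serping1 spread widely among stimulated rats, while Serinc2 and Npy2r form narrow groups that do not overlap.

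Of 22 measured microglial genes, 5 rose and all 22 had a positive change, 21 of them at an unadjusted p under 0.05. The median change was 0.53, beside -0.00641 for all probe sets and 0.88 for the same list at 7 d. Cx3cr1, the fractalkine receptor, had values of 8.16, 8.09, 8.34, 8.04 and 8.35 in sham-operated rats and 9.12, 9.37, 8.88, 8.37 and 8.91 in stimulated rats. Replicate 4 lay just above the highest control, and the rise was 0.73 (standard error 0.144, limma adjusted p = 0.00923). Csf1r, the receptor of the growth factor on which microglia depend, had values of 7.95, 7.93, 7.83, 7.73 and 8.21 in sham-operated rats and 9.04, 9.21, 8.50, 8.09 and 8.65 in stimulated rats. Replicate 4 lay within the controls, and the rise was 0.77 (standard error 0.156, limma adjusted p = 0.0117), with an adjusted p of 0.0553 when both arrays that stood apart were left out. Itgam, the integrin CD11b, had values of 4.92, 4.93, 4.83, 4.47 and 5.01 in sham-operated rats and 6.12, 6.72, 5.47, 5.11 and 5.89 in stimulated rats. All stimulated rats were higher, and the rise was 1.03 (standard error 0.249, limma adjusted p = 0.0357). This call was lost without any 1 of the sham-operated rats at 30 d or stimulated replicate 1, 2 or 5 (adjusted p up to 0.122). The purine receptor P2ry12 changed by 0.60 (limma adjusted p = 0.0388) and the protease Ctss by 0.56 (limma adjusted p = 0.0288), and their calls were lost in 11 and 6 fits without 1 rat. Adgre1, the macrophage marker F4/80, changed by 0.87 (limma adjusted p = 0.0152), a call lost in 2 fits without 1 rat. Clec12a, a lectin receptor of myeloid cells, rose by 0.43 (limma adjusted p = 0.00904). Tmem119 (change 0.28, limma adjusted p = 0.308), Aif1 (0.54, 0.0767) and Ptprc (0.65, 0.165) were not called. Of 12 measured genes of blood and leukocytes, 1, Cd4, was called in 1 of its 2 probe sets (change 1.05, and 0.04 in the other), a call lost in 8 fits without 1 rat (adjusted p up to 0.114).

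The promoters of these myeloid genes were searched for the core motif of PU.1, the transcription factor that directs the myeloid lineage, since microglial genes moved together. The motif was GAGGAAG on either strand, in the 250 bases before and the 50 bases after the start of each gene (RefSeq, GRCr8). Promoters were matched for 104 of the 127 raised genes, 111 of the 135 genes that fell and 11914 genes tested. The motif was in 20.2% of the promoters of raised genes, 15.3% of those of genes that fell and 13.5% of all. It was found in promoters of genes that fell too, so a match is a description of the sequence only. The windows of 7 raised myeloid and leukocyte genes, chosen from the 21 raised genes that held the motif, with Atp2b4 and 1 window of C1ql3 from the falls beside them, are shown 5′ to 3′ on the strand of the gene, with the motif or its reverse complement in capitals.
Csf1r, chr18:56834139-56834165, plus strand: gattctgcctCTTCCTCtggtgtgtgt
Itgam, chr1:192089431-192089457, plus strand: tgatgtcccaGAGGAAGgctacacagg
Itgam, chr1:192089542-192089568, plus strand: gctttagtggCTTCCTCaaagtgtttg
Ctss, chr2:185775370-185775396, plus strand: tgaaagttcaCTTCCTCgttgtggata
Adgre1, chr9:2329223-2329249, plus strand: aatggaaagaGAGGAAGgaagagggga
Clec12a, chr4:164484122-164484148, plus strand: gaagaaatatGAGGAAGaaaggcgttc
Cd37, chr1:104860846-104860872, minus strand: acccccggaaCTTCCTCtttctctgcc
Dapp1, chr2:229148861-229148887, minus strand: ccaagtttcaCTTCCTCgctagccaga
Atp2b4, chr13:47758917-47758943, minus strand: cccccaacctCTTCCTCctctcactag
C1ql3, chr17:81038448-81038474, minus strand: tgggttaggcGAGGAAGtattcaggat
Itgam held the motif at 2 places, 151 and 40 bases before its start. Cd300lf and Cyth4, also raised, held it and are not shown. So did raised genes that are not particular to myeloid cells, such as Vim, Wls and Mgst1. The promoter of the raised microglial gene Cx3cr1 held no match, nor did those of the raised genes Gpr183 and Ptafr. Cd37, a leukocyte tetraspanin, changed by 0.70 (limma adjusted p = 0.0458) and Dapp1, an adaptor of lymphocyte signalling, by 0.91 (limma adjusted p = 0.0353), and both calls were lost in 16 and 8 fits without 1 rat. The antioxidant response element TGACNNNGC was in 11.5% of the promoters of raised genes, 8.11% of those of genes that fell and 14.1% of all. The E-box CAGCTG was in 24.0%, 18% and 16.6%.

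Astrocyte genes were raised in part. Gfap, the filament of reactive astrocytes, lay at 9.52, 9.56, 9.24, 9.50 and 9.79 in sham-operated rats and 10.70, 10.89, 10.16, 9.88 and 10.65 in stimulated rats, a rise of 0.93. Vim, the filament vimentin, had values of 8.15, 8.31, 8.02, 8.05 and 8.16 in sham-operated rats and 9.02, 9.31, 8.70, 8.49 and 9.60 in stimulated rats. The groups did not overlap for either filament, and replicate 4 was the lowest stimulated rat for both. Vim rose by 0.89 (standard error 0.172, limma adjusted p = 0.0081) at 30 d and by 0.70 at 7 d, with an adjusted p of 0.0553 when both arrays that stood apart were left out. The hyaluronan receptor Cd44 changed by 0.57 (limma adjusted p = 0.0134) and the lipid receptor S1pr3 by 0.61 (limma adjusted p = 0.0247), and their calls were lost in 1 and 6 fits without 1 rat. Of 26 measured genes of the reactive astrocyte list, 6 rose and 0 fell, with a median change of 0.14 at 30 d and 0.27 at 7 d. The list holds Serping1, which also counts under complement. Of 16 genes of resting astrocytes, 1 was called higher, Mlc1, a membrane protein of astrocyte end-feet (change 0.35, limma adjusted p = 0.0157), and the median change was 0.04. The call of Mlc1 was lost without stimulated replicate 1 or 2 (adjusted p up to 0.0624). Cp, the copper protein ceruloplasmin, changed by 0.68 (limma adjusted p = 0.0471), a call lost in 15 fits without 1 rat.

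Lox, which cross-links collagen and elastin, was the only 1 of 39 measured genes of the matrix and remodelling list past the test. Its values were 5.08, 5.11, 4.85, 5.05 and 4.83 in sham-operated rats and 6.04, 5.82, 5.77, 5.58 and 6.71 in stimulated rats. Replicate 5 was the highest, and the rise was 1.0 (standard error 0.144, limma adjusted p = 0.000767). At an unadjusted p under 0.05, 13 genes of this list were higher and 1 was lower, and the median change was 0.05. The matrix gene Fbln1 and the metalloproteinase Mmp19, outside the list, were also called higher. Fbln1 lay at 6.44 to 6.86 in sham-operated and 7.01 to 7.06 in stimulated rats, and Mmp19 at 4.04 to 4.39 and 4.41 to 5.11. Serinc2, a membrane protein of the serine incorporator family (probe set 10880095), had the smallest p of the rises named. Its values were 8.20, 8.18, 8.04, 8.09 and 7.91 in sham-operated rats and 9.18, 9.14, 8.89, 8.85 and 9.02 in stimulated rats. Here replicate 4 did not stand out, and the rise was 0.93 (standard error 0.0887, limma adjusted p = 1.26e-05). Necab3, an EF-hand calcium-binding protein, had values of 6.37 to 6.84 and 7.25 to 7.79 and rose by 0.90 (limma adjusted p = 0.00048). Wls, which carries Wnt proteins to the cell surface, had values of 6.56 to 6.81 and 7.14 to 7.70 and rose by 0.65 (limma adjusted p = 0.000531). None of the 32 measured Notch and Wnt genes of the list, which does not hold Wls, passed the test in limma, and 4 were higher and 3 lower at an unadjusted p under 0.05.

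Further rises belonged to no list and were picked with their values in view. Gsta1, a glutathione transferase, had values of 8.37, 8.43, 8.69, 8.28 and 8.50 in sham-operated rats and 8.97, 9.23, 8.86, 8.72 and 8.94 in stimulated rats. The lowest stimulated rat, replicate 4, was just above the highest control, and the rise was 0.49 (standard error 0.0844, limma adjusted p = 0.0036). Mgst1, a glutathione transferase of membranes, rose by 0.70 (limma adjusted p = 0.00621), with groups that overlapped through stimulated replicate 4 at 5.36. Nfe2l2, the factor NRF2 that drives antioxidant genes, changed by 0.44 (limma adjusted p = 0.0265), a call lost in 6 fits without 1 rat. Ftl1, the ferritin light chain, was called in 4 of its 7 probe sets, with changes of all 7 between 0.30 and 0.37. In the first of them its values were 10.47, 10.40, 10.05, 10.51 and 10.56 in sham-operated rats and 10.72, 10.87, 10.71, 10.60 and 10.77 in stimulated rats. The groups lay close but did not overlap. Each of its 4 calls was lost in 3 to 7 fits without 1 rat, so this rise was less firm than that of Gsta1. Ferritin genes have near-identical copies, so these probe sets may share signal. Plin2, which coats lipid droplets, rose by 0.57 (limma adjusted p = 0.00621), and Lpar1, a receptor of lysophosphatidic acid, by 0.38 (limma adjusted p = 0.00704). Ptgs2, the prostaglandin synthase COX-2, rose by 0.67 (limma adjusted p = 0.0124), with an adjusted p of 0.0625 when both arrays that stood apart were left out. Aadat, which makes kynurenic acid, had values of 5.50 to 6.12 and 6.16 to 6.67 and rose by 0.58 (limma adjusted p = 0.00676). Entpd2, which breaks down extracellular ATP, rose by 0.41 (limma adjusted p = 0.00632).

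Genes of newborn granule neurons were called in both directions. Sox11, a transcription factor of immature neurons, had values of 6.24, 6.41, 7.19, 6.54 and 6.20 in sham-operated rats and 7.16, 7.49, 7.29, 7.13 and 7.63 in stimulated rats. Sham-operated replicate 3 lay within the stimulated range, and the rise was 0.82 (limma adjusted p = 0.00676). Nhlh1 fell, as given above, and Dcx, a microtubule protein of young neurons, changed by 0.18 (limma adjusted p = 0.209). Of 26 measured genes of this list, 1 rose and 1 fell, with a median change of 0.01 at 30 d and 0.09 at 7 d. At an unadjusted p under 0.05, 5 were higher and 2 were lower at 30 d. None of the 19 measured cell cycle genes passed the test at 30 d (limma, with 1 higher and 1 lower at an unadjusted p under 0.05).

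The changes at 30 d were set beside those at 7 d, in which 635 probe sets (4.02%) were higher and 389 (2.46%) were lower. The comparisons at 7 d and 30 d used different rats. Of the 635 raised at 7 d, 105 (16.5%) were still called at 30 d, and their median change went from 0.40 to 0.21 over all 635. Of the 389 lowered at 7 d, 104 (26.7%) were still called, with medians of -0.32 and -0.20. Read from 30 d, 105 of 132 rises (79.5%) and 104 of 142 falls (73.2%) had been called at 7 d. Of the falls, 84 of 142 were larger in size at 30 d than at 7 d, and of the rises 56 of 132. Each of these sets was chosen by its call at 7 d or at 30 d, which favours larger changes at that time. Both comparisons also shared the variance estimate of each probe set, which favours calls at both times. These medians, shares and counts therefore only describe the sets. The test of the difference between the changes called 0 probe sets (0%) after adjustment in limma, with a smallest adjusted p of 0.399 for Cdh4, and 682 (4.32%) at an unadjusted p under 0.05. Of the probe sets called at 30 d, 10 rises and 15 falls were among these 682. No gene was thus shown to change differently at the 2 times.

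**Figure D3:**
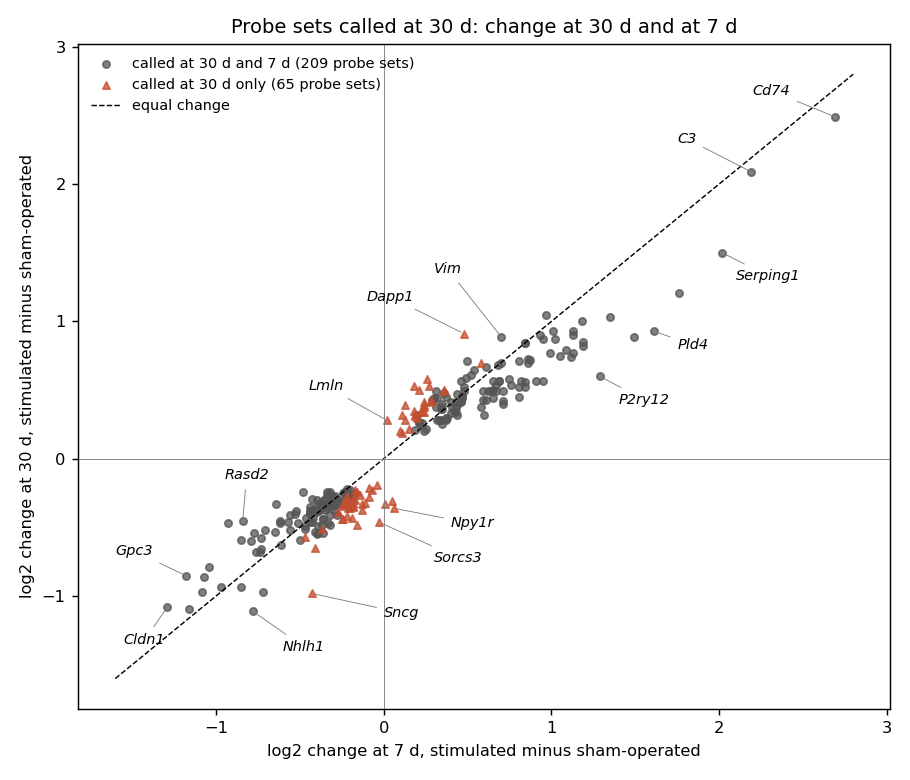
Log2 change, stimulated minus sham-operated, at 30 d (vertical axis) against that at 7 d (horizontal axis) for the 274 probe sets called at 30 d, with the line of equal change dashed. Grey circles were called at both times (209) and red triangles at 30 d only (65). The latter lie nearer to 0 at 7 d, which their choice by the lack of a call at 7 d favours.

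Within that limit, 65 probe sets were called at 30 d and not at 7 d. Sorcs3, a sorting receptor of neurons, had values of 7.30, 7.29, 7.53, 7.55 and 7.44 in sham-operated rats and 6.97, 6.93, 6.93, 7.04 and 6.94 in stimulated rats. The groups did not overlap, and the change was -0.46 (standard error 0.0892, limma adjusted p = 0.0081) at 30 d and -0.03 at 7 d (unadjusted p of the difference 0.00267, limma). With both arrays that stood apart left out, the adjusted p of Sorcs3 at 30 d was 0.0551 (limma). Nefm, a neurofilament subunit, changed by -0.31 (limma adjusted p = 0.0328) and 0.05 (unadjusted p of the difference 0.0025), and its call at 30 d was lost in 5 fits without 1 rat. Socs5, a regulator of cytokine signals, changed by -0.33 and 0.01 (0.00163), Schip1, a protein of the axon initial segment, by -0.48 and -0.16 (0.00782), and the peptidase Lmln by 0.28 and 0.02 (0.00454). The other probe set of Schip1, with a mean level of 8.12 beside 5.53, changed by -0.03 at 30 d (limma adjusted p = 0.894). Lcat, which esterifies cholesterol, changed by 0.53 and 0.18 (0.0682). Among genes with a smaller change at 30 d, P2ry12 changed by 0.60 at 30 d and 1.29 at 7 d (0.00387), the myeloid transcription factor Runx1 by 0.32 and 0.60 (0.00889), and Kcnh5 by -0.33 and -0.64 (0.016). Pld4, of the phospholipase D family, changed by 0.93 and 1.61 (0.0405), S100a3 by 0.89 and 1.49 (0.0263), Vwa3a by -0.47 and -0.93 (0.00715), and Rasd2, a small GTPase of neurons, by -0.45 and -0.84 (0.0172). The calls of Runx1, Pld4, Vwa3a, Rasd2 and Lcat at 30 d were lost in 4, 7, 6, 7 and 7 fits without 1 rat. All these p-values of differences are unadjusted, and none was under 0.05 after adjustment.

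The stimulated rats differed in how strongly they showed the rises. Over the 132 raised probe sets, the median difference from the sham mean was 0.56, 0.62, 0.38, 0.23 and 0.55 in stimulated replicates 1 to 5, while it lay between -0.04 and 0.05 in the controls. Replicate 4 was the lowest stimulated rat in 96 of the 132 and replicate 2 the highest in 69. Over the 142 probe sets that fell, the medians were -0.36, -0.42, -0.34, -0.30 and -0.45, a narrower range. Here replicate 4 was nearest to the controls in 53 and replicate 5 was the lowest in 66. These probe sets were chosen by the same contrast, so the values only describe how the rats shared in it. The SD among stimulated rats was larger than among sham-operated rats in 102 of the 132 rises (77.3%), in 91 of the 142 falls (64.1%) and in 44.1% of all probe sets. The median SD of the rises was 0.192 in stimulated and 0.117 in sham-operated rats.

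**Figure D4:**
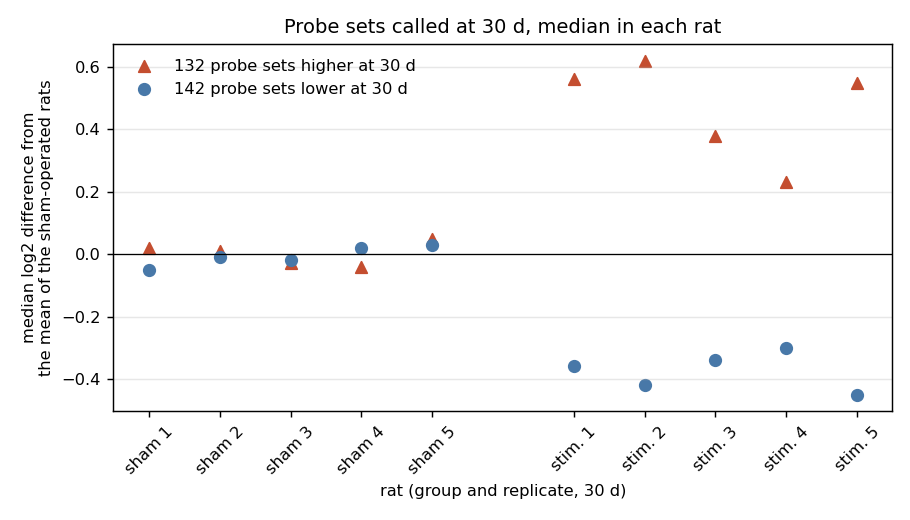
Median log2 difference of each rat from the sham mean at 30 d (vertical axis), over the 132 probe sets that were higher and the 142 that were lower. Stimulated replicate 4 shows the smallest shift among the rises (median 0.23), and the medians of the falls lie closer together, from -0.45 to -0.30.

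In the microglial, MHC class II and reactive astrocyte lists, replicate 4 was the stimulated rat nearest to the sham mean. The mean level of the microglial list was 0.74, 1.03, 0.36, 0.13 and 0.45 above the sham mean in stimulated replicates 1 to 5, with controls between -0.13 and 0.10. That of the MHC class II list was 1.07, 1.28, 0.33, 0.08 and 0.38 above it, with controls between -0.08 and 0.08. The reactive astrocyte list was 0.37, 0.46, 0.17, 0.04 and 0.50 above it, highest in replicate 5 rather than replicate 2. Genes of endothelium and pericytes were higher by 0.14, 0.11, 0.12, 0.11 and 0.18, with 0 of 15 past the test in limma and 6 higher at an unadjusted p under 0.05. The immediate early list was 0.49 above the sham mean in stimulated replicate 2, with Arc at 7.26, and between -0.09 and 0.03 in the others. No gene passed the test in either direction among 17 oligodendrocyte genes, 12 of meninges, 7 of choroid plexus and 17 of cholesterol synthesis (limma). At an unadjusted p under 0.05, 3, 3, 0 and 1 of these were higher, and 1 cholesterol gene was lower. The share of each cell type in the dissected tissue was not measured, and its part in the changes of genes of that type was not tested.

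**Figure D5:**
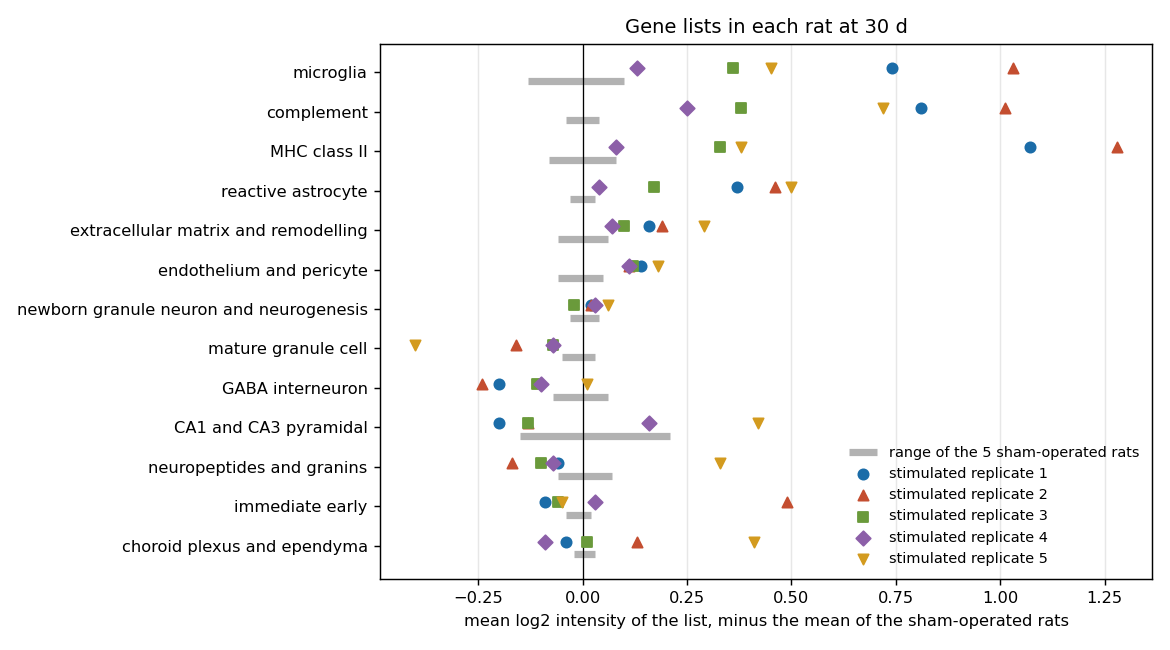
Mean log2 intensity of gene lists at 30 d as a difference from the sham mean, with 1 point per stimulated rat and a grey bar for the range of the 5 sham-operated rats. The microglial list is highest in stimulated replicate 2 (1.03) and the mature granule cell list lowest in stimulated replicate 5 (-0.40).

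Of 25 measured genes of the interferon response and class I processing, B2m alone, the light chain of MHC class I, was called (change 0.32, limma adjusted p = 0.0357, lost in 7 fits without 1 rat), and the median change was 0.11, beside 0.36 at 7 d. None of the 25 measured genes in the list of cytokines, chemokines and their receptors passed the test in limma, and 4 were higher and 3 lower at an unadjusted p under 0.05. The receptor Il13ra1, outside that list, was called higher in both probe sets (changes 0.44 and 0.49, limma adjusted p = 0.0368 and 0.036). The cytokine Il16, also outside it, was called lower, with values of 7.53 to 7.72 in sham-operated and 7.02 to 7.49 in stimulated rats. Of 20 genes of phagocytosis and lysosomes, 1 was called: the sterol carrier Npc2 changed by 0.77 (limma adjusted p = 0.0355), and 10 were higher at an unadjusted p under 0.05. The call of Npc2 was lost in 8 fits without 1 rat (adjusted p up to 0.108). Of 36 genes in the list of synaptic vesicles and release, Syt10 alone fell, 7 were lower and 1 was higher at an unadjusted p under 0.05, and the median change was -0.04. The vesicle genes Rab3c and Rph3a, outside that list, were also called lower. Rab3c lay at 9.31 to 9.40 in sham-operated and 8.86 to 9.23 in stimulated rats, and Rph3a at 8.73 to 8.88 and 8.25 to 8.65.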

How the data were processed

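The log2 intensities were deposited by the authors, who had normalized Affymetrix Rat Gene 1.1 ST arrays with RMA (oligo 1.22.0, per the labels). The values were not floored or filtered, so these steps of the methods were repeated. The 20th percentile over the whole table (log2 intensity 3.69) stood in for the median of the antigenomic probes as the background. Lower values were set to it, and a probe set was dropped when over 5 arrays did not exceed it. Of 29214 probe sets, 18644 carried 1 gene symbol, 962 several and 9608 none, and 15800 of the 18644 passed, for 14586 gene symbols. Members of lists with several probe sets were taken at the one with the highest mean.

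Groups came from the labels, which call the samples biological replicates. limma 3.58.1 in R 4.3.3 (lmFit, eBayes) was fitted to all 20 arrays in 1 model of 4 groups, with p-values adjusted by Benjamini-Hochberg over all 15800 and a threshold of 0.05. Precision is limited by 5 arrays per group. The fit was tested on simulated data.

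Genes named were the 15 largest rises and 15 largest falls without overlap between the groups, all called members of 36 gene lists (813 of 932 genes measured), up to 4 other members of each list and those whose change differed most from that at 7 d. Genes outside this rule were picked with their values in view. The comparison and the lists were chosen with earlier results of these data known. Alternatives were other filters, normalizations and moderation, array weights, the 30 d arrays alone, probe sets averaged by gene, a replicate block and each rat left out. The miRNA arrays were not analysed here.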

Additional observations from a re-analysis of the deposited data

Results flagged for a closer look

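Of 504 sets of 5 rats of a group examined for the named genes, 39 held a rat whose distance from its nearest neighbour was more than 0.71 of the whole range of the group, a share that chance gives in about 1 of 20 sets. Values are log2 intensities, each beside that of the nearest rat.

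Sham-operated replicate 3 was the rat in 17 of them. It was the lowest for Mlc1 (8.66 beside 8.82), Gpr37l1 (8.87 beside 9.17), Fgfr3 (6.56 beside 6.98), Grn (7.79 beside 8.0), Cacna1i (8.02 beside 8.38) and Grm3 (8.82 beside 8.98). It was also the lowest for Efnb2 (4.93 beside 5.47), Necab2 (8.25 beside 8.60), Txnip (5.95 beside 6.49), Srebf2 (8.89 beside 9.08), Slc2a1 (8.47 beside 8.69) and Htr2a (6.35 beside 6.68). It was the highest for Serping1 (5.05 beside 4.95), Stxbp6 (9.63 beside 9.35), Scg2 (9.77 beside 9.58), Slc24a4 (7.88 beside 7.75) and Igf1 (5.89 beside 5.64). The other sham-operated rats gave 5: replicate 1 was the highest for Cd68 (4.84 beside 4.55) and Hsd17b7 (6.60 beside 6.38), replicate 4 for Rims2 (8.30 beside 8.15), and replicate 5 for Bmp3 (7.57 beside 7.22) and Arc (6.96 beside 6.70).

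Stimulated replicate 5 was the lowest for Cldn1 (5.27 beside 5.57), Plk5 (5.43 beside 6.82), Wnt7b (7.43 beside 7.57) and 1 probe set of Ralgapa2 (7.28 beside 7.59). It was the highest for Dcx (7.69 beside 7.38), the neuropeptide Gal (5.97 beside 5.05), Stard4 (4.95 beside 4.88), Abcc9 (6.60 beside 6.13) and Trpc4 (7.72 beside 7.38). Stimulated replicate 2 was the lowest for Sncg (6.18 beside 7.61) and Kcnh5 (5.79 beside 6.10), and the highest for the activity-induced genes Arc (7.26 beside 6.35) and Fosb (5.76 beside 4.75). Stimulated replicate 4 was the lowest for the raised gene Mgst1 (5.36 beside 5.87) and for Plat (7.49 beside 7.74), and the highest for Efnb2 (5.22 beside 4.85). Stimulated replicate 1 was the lowest for Aqp1 (4.88 beside 5.02).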

How the results depend on the processing

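With array weights 370 probe sets were higher and 394 lower at 30 d, and 2 differed in their change between the times. Without moderation of the variances, 68 were higher and 82 lower. Leaving out 1 rat gave 63 to 219 higher, 69 to 186 lower and 0 to 1 that differed between the times. With the replicate number as a block, 91 were higher and 92 lower, and 168 of the 274 calls were kept. The labels do not say that the numbers pair the rats. The deviations of rats with the same number correlated at -0.123, 0.153, 0.04, 0.041 and 0.063 at 30 d. Sham-operated replicates 2, 3 and 4 were closest to the stimulated rat with their own number, and replicates 1 and 5 were not. With so few rats these values cannot decide whether the rats were paired. With both arrays that stood apart left out, a setting chosen after seeing the data, 60 were higher and 76 lower. The cause of these differences was not tested, except that fits with fewer rats have less data. The other filters, normalizations, the intensity trend, the 30 d arrays alone and the average by gene gave 123 to 144 higher and 128 to 150 lower. Of 113 called probe sets of named genes, 61 kept the call with each rat left out and 58 in every planned setting, 25 of these higher and 33 lower. No direction reversed. Low signal limits genes such as Clec12a, with a mean of 4.07 in sham-operated rats, near the background of 3.69.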
